A study of Mus musculus with 4 samples.

Results

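Megalin and cubilin endocytosis is described here through 6 genes, Lrp2, Cubn, Amn, Dab2, Clcn5 and Ocrl, chosen by name from the 38924 genes listed for mouse kidney. All kidneys came from female mice of the CB-17 SCID strain (Balb/c background), whose severe combined immunodeficiency mutation leaves them with almost no B or T cells. Immune complexes of IgG with galactose-deficient IgA1 (Gd-IgA1) were injected into the tail vein of 1 group (n = 2), and saline into the other (n = 2). Each group had 3 injections over 7 days, the complexes on every other day, and the immune complex kidneys were taken the day after the last one. Age is not given in the labels, and part of a kidney was used for each library. The labels do not say that libraries of a group came from separate animals, so p-values measure only the spread between these libraries.

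Megalin and cubilin are large receptors of the apical membrane of the proximal tubule, where they bind filtered proteins, hormones and vitamin carriers and bring them into the cell. Amnionless holds cubilin at the membrane, and the adaptor Dab2 links megalin to the clathrin coat. Inside the cell the chloride-proton exchanger ClC-5 serves the acidification of endosomes and the phosphatase OCRL sets their phosphoinositides; loss of either in people causes low molecular weight proteinuria.

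No gene of this group differed between immune complex and saline kidneys beyond the spread between libraries. The log2 fold change of immune complex over saline lay between -0.14 for Amn and 0.17 for Cubn, and the adjusted p was 1.0 for each of the 6 (edgeR's quasi-likelihood test with Benjamini-Hochberg adjustment over 16334 tested genes). Across all tested genes 0% passed an adjusted p of 0.05 with this test. At an unadjusted p under 0.05 there were 749 genes (4.59%), none of them among the 6, DESeq2 called 96 of 15883 genes (0.604%) and limma-voom called 0. For Lrp2, Cubn, Amn, Clcn5 and Ocrl the gap between the immune complex libraries was larger on the log2 scale than the difference between groups, and for Dab2 it was smaller. Lrp2, Cubn and Clcn5 were higher in immune complex 2 than in immune complex 1, and Amn was lower.

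The libraries held 22791960 and 21681408 gene reads in immune complex 1 and 2 and 19675879 and 20950134 in saline 1 and 2. Summed CPM (reads scaled to library size) of 20 proximal tubule markers were 16245 and 14819 in immune complex libraries against 16920 and 16785 in saline libraries. Every one of these markers was detected. Sums of markers use library size alone, while CPM of single genes were further scaled by edgeR's TMM factor of each library. Adipocyte markers summed to 1783 and 1298 CPM in immune complex libraries against 197 and 683 CPM in saline libraries. Of these, 10 of 10 were higher without overlap between groups (15.4% of all tested genes were). Principal cell markers summed to 984 and 643 CPM in immune complex libraries against 2397 and 1009.8 CPM in saline libraries. Of those, 3 of 8 were lower without overlap (14.6% of all tested genes were). The most abundant, Aqp2, had 528 and 302 CPM in immune complex 1 and 2, against 1704 and 544 CPM in saline 1 and 2. The part of the adipocyte and principal cell markers in the values below was not tested. In whole tissue, fewer cells of a type and less RNA per cell cannot be told apart.

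Levels are given as RPKM, reads scaled to exon length and library size, for comparison between genes. That comparison is limited for Cubn, as most of its reads were not unique. For Dab2 the RPKM followed total gene reads instead of exon reads. By mean RPKM over the 4 libraries the order was Lrp2 (121), Amn (74.7), Dab2 (50.4), Cubn (30.4), Clcn5 (9.23) and Ocrl (2.25). Ranges over the libraries did not overlap between neighbours in this order. The closest pair was Amn, at 53.7 to 84.3 RPKM, and Dab2, at 46.6 to 52.9 RPKM. Lrp2 stood at rank 417 and Ocrl at rank 9899 of the 38924 listed genes.

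**Figure D1:**
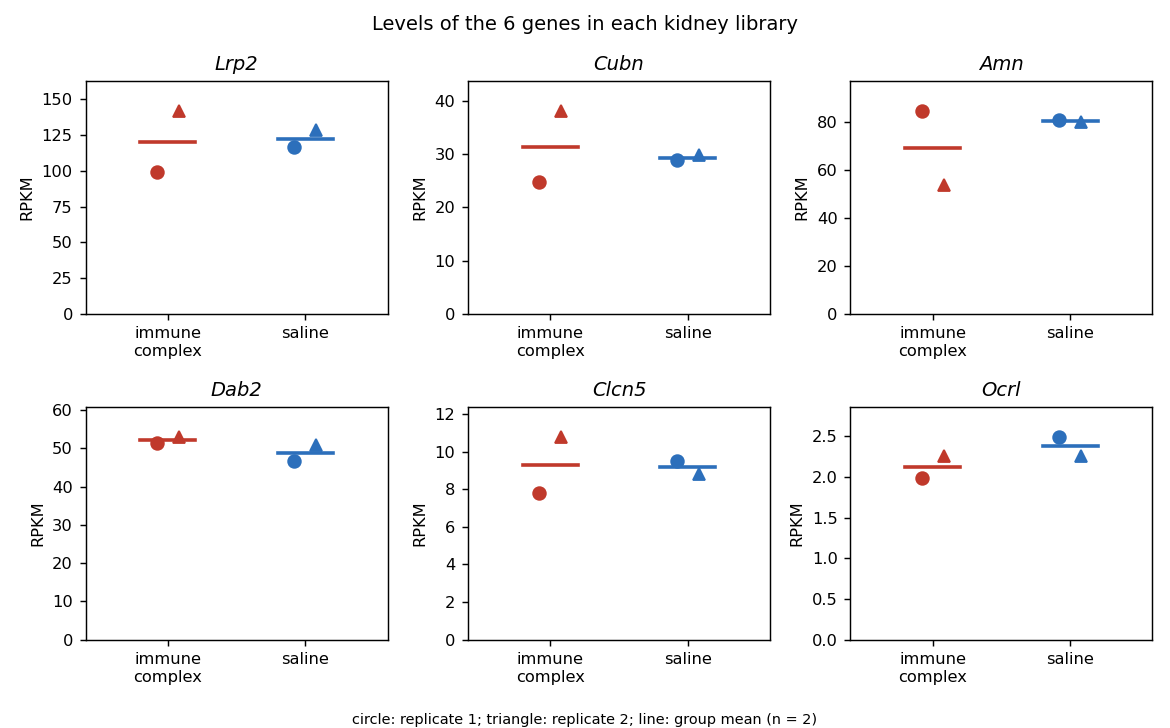
Deposited RPKM (vertical axes, each starting at 0) of the 6 genes in the immune complex and saline libraries, with replicate 1 as a circle, replicate 2 as a triangle and the group mean as a line (n = 2 each). The immune complex libraries lie on either side of both saline libraries for Lrp2, Cubn, Amn and Clcn5, with Amn in the opposite order.

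Lrp2 (ENSMUSG00000027070) encodes megalin and lies on the minus strand at chr2:69424340-69586065 of GRCm38, with 84 exons and 16701 exon bases. Exon counts and exon bases are those listed for the whole gene and need not be those of a single transcript. The coding transcript of Lrp2 has 15460 bases. It had 99.4 and 142 RPKM in immune complex 1 and 2 (38054 and 51542 reads), against 116 and 128 RPKM in saline 1 and 2 (38412 and 45142 reads). Immune complex 1 was the lowest library and immune complex 2 the highest, with both saline libraries between them. The log2 fold change was 0.04 ± 0.22 (SE), with a 95% interval of -0.49 to 0.57, which is 0.711-fold to 1.49-fold. Without immune complex 2 it was -0.24, and without immune complex 1 it was 0.28.

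Cubn (ENSMUSG00000026726) encodes cubilin, which has no membrane-spanning part of its own, and lies on the minus strand at chr2:13276338-13491924, with 71 exons and 11811 exon bases. Its level was 24.8 and 38.1 RPKM in immune complex 1 and 2 (6832 and 9846 reads), against 28.8 and 29.8 RPKM in saline 1 and 2 (6777 and 7495 reads). The libraries fell in the order seen for Lrp2, and the groups overlapped. Its log2 fold change was 0.17 ± 0.24 (SE; 95% interval -0.40 to 0.73), and it was -0.17 without immune complex 2 and 0.44 without immune complex 1. Only 37.8% and 47.5% of Cubn reads in immune complex 1 and 2, against 46.0% and 44.2% in saline 1 and 2, were counted as unique, while the other 5 genes had at least 99.3% unique reads in each library. A share under 50% was found in 14.6% of tested genes. Gm13270, annotated on the opposite strand, spans 31.6% of the 11262 bases of the coding transcript of Cubn. It had 106 and 19 reads in immune complex libraries against 103 and 206 in saline libraries, most of them not unique. The span of Gm13270 was taken from gene start to gene end, and exon bases shared by both genes were not counted. Since the strand setting is not given, it is not known how many reads from this stretch could be assigned to either gene. The part of this stretch in the share of unique Cubn reads was not tested. With unique reads alone the log2 fold change of Cubn was 0.12 ± 0.30 (SE).

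The promoters of the receptor genes are shown because the pair stood in the same order over the 4 libraries. Each line gives the 250 bases before the start of transcription, from RefSeq on GRCm38.p6, on the minus strand at chr2:69586030-69586279 for Lrp2 and chr2:13491877-13492126 for Cubn. RefSeq places both starts inside the gene spans given above, so part of each window lies within those spans. Capitals mark GGGCGG, the GC box, searched on both strands.
Lrp2: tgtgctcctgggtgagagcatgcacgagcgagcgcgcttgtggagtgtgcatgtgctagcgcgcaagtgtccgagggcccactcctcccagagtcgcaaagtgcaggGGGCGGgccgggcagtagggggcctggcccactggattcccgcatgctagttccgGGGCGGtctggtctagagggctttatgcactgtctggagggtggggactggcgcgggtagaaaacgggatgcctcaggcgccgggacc
Cubn: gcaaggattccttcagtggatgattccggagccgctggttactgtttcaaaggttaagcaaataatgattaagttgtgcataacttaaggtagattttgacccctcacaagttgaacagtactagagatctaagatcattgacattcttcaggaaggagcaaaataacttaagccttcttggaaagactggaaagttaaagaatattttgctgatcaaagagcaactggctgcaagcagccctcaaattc
The windows differ in composition, with 66.4% G and C and 18 CpG for Lrp2 and 39.6% and 2 CpG for Cubn. GGGCGG was found 2 times for Lrp2 and 0 times for Cubn, and it occurs in 32.7% of 32851 promoter windows of this length. GTTAAT, a half-site of the tubular factor HNF1, was in neither window (6.43% of all windows), nor was TATAAA (12.4%). These matches describe letters and no binding was measured.

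Amn (ENSMUSG00000021278) encodes amnionless, the membrane partner of cubilin, and lies on the plus strand at chr12:111271111-111276426, with 12 exons and only 1685 exon bases. Its level was 84.3 and 53.7 RPKM in immune complex 1 and 2 (3340 and 2007 reads), against 80.9 and 79.9 RPKM in saline 1 and 2 (2715 and 2891 reads). Immune complex 2 stood apart as the lowest library, and immune complex 1 was slightly above both saline libraries. For Amn the log2 fold change was -0.14 ± 0.24 (SE; 95% interval -0.73 to 0.44). It was 0.15 without immune complex 2 and -0.51 without immune complex 1.

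Because amnionless and cubilin work as one receptor, the ratio of their levels was also taken. Amn RPKM was 339% and 141% of Cubn RPKM in immune complex 1 and 2, against 280.4% and 268% in saline 1 and 2. The saline ratios were close together and the immune complex ratios lay on either side of them (exact permutation test, two-sided p = 1, where 4 libraries allow no p under 0.333). Cubn was 24.99% and 26.9% of Lrp2 in immune complex libraries, against 24.8% and 23.2% in saline libraries, so the immune complex ratios were higher without overlap, by a narrow margin (exact permutation test, two-sided p = 0.333, the smallest possible). Most Cubn reads were not unique. Unique reads were 2581 for Cubn and 38042 for Lrp2 in immune complex 1, against 3116 and 38400 in saline 1. On unique reads immune complex 1 thus fell below saline 1, and the separation did not hold. Ratios of this kind were tested 12 times in all, and with Benjamini-Hochberg adjustment each p was 1.

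Dab2 (ENSMUSG00000022150), listed in the files as Dab2_1, encodes the clathrin adaptor that binds the tail of megalin and lies on the plus strand at chr15:6299788-6440712, with 43 exons and 7344 exon bases. It stood at 51.2 and 52.9 RPKM in immune complex 1 and 2 (8577 and 8422 reads), against 46.6 and 50.9 RPKM in saline 1 and 2 (6728 and 7829 reads). Both immune complex libraries were above both saline libraries, by a margin smaller than the gap between the saline libraries. The deposited RPKM of this gene followed total gene reads and not exon reads as for the other 5. From exon reads it would be 48.9 and 51.1 RPKM in immune complex libraries against 45.2 and 48.7 RPKM in saline libraries. Dab2 had a log2 fold change of 0.16 ± 0.18 (SE; 95% interval -0.26 to 0.58) and stayed between 0.08 and 0.23 with any 1 library left out. Dab2 is also expressed by macrophages, whose 12 markers were all detected and all had a positive log2 fold change, 8 of them without overlap (background 15.4%). Their summed level was 286 and 317 CPM in immune complex libraries against 242 and 249.97 CPM in saline libraries, and their part in the Dab2 values was not tested. Introns held 90.4% of the reads of the marker Mrc1 and 88.2% of those of Cx3cr1. Both genes are among the 8 and in the sum. A second entry, Dab2_2, had 0 reads in every library.

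Clcn5 (ENSMUSG00000004317) encodes ClC-5 and lies on the minus strand of the X chromosome at chrX:7153810-7319358, with 25 exons and 11452 exon bases. Its level was 7.80 and 10.8 RPKM in immune complex 1 and 2 (2070 and 2695 reads), against 9.52 and 8.83 RPKM in saline 1 and 2 (2173 and 2148 reads). The immune complex libraries again lay on either side of the saline libraries. Clcn5 had a log2 fold change of 0.08 ± 0.21 (SE; 95% interval -0.42 to 0.57), and it was -0.17 without immune complex 2 and 0.29 without immune complex 1.

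Ocrl (ENSMUSG00000001173), the gene of Lowe syndrome, encodes an inositol polyphosphate 5-phosphatase and lies on the plus strand at chrX:47912387-47965868, with 37 exons and 9486 exon bases. It was the lowest of the 6 at 1.99 and 2.26 RPKM in immune complex 1 and 2 (491 and 503 reads), against 2.49 and 2.26 RPKM in saline 1 and 2 (499 and 510 reads). On the CPM scale it had 22.002 and 23.8 in immune complex libraries against 24.5 and 24.1 in saline libraries, so the immune complex libraries were lower without overlap, though closely so. Introns held 12.2% and 7.75% of Ocrl reads in immune complex libraries, against 6.81% and 11.8% in saline libraries. The log2 fold change was -0.09 ± 0.18 (SE; 95% interval -0.51 to 0.33), and it ranged from -0.15 to -0.03 with single libraries left out. Groups thus did not overlap in CPM for 2 of the 6 genes, Dab2 higher and Ocrl lower, against 30.0% of all tested genes (15.4% higher and 14.6% lower).

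**Figure D2:**
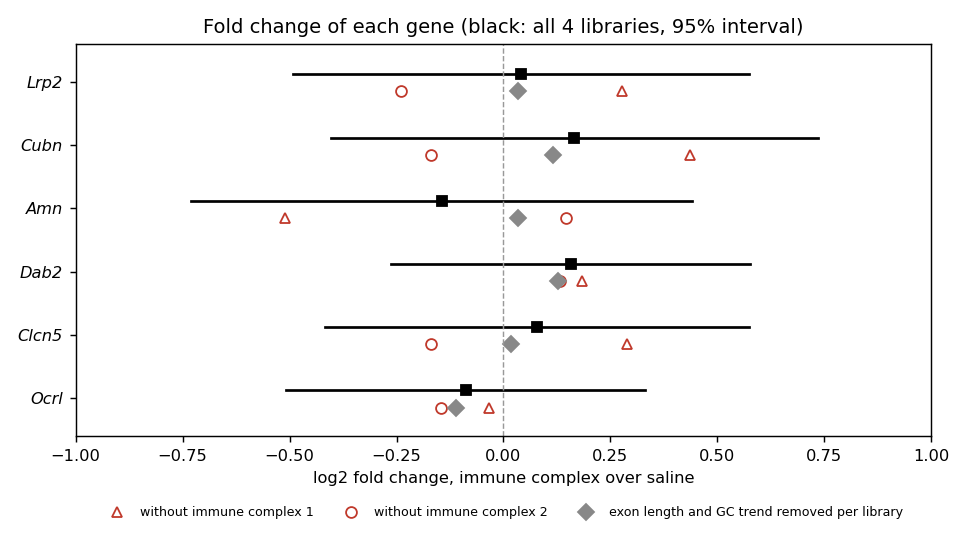
Log2 fold change of immune complex over saline (horizontal axis) for each gene, with all 4 libraries as a black square and its 95% interval, without 1 immune complex library as open symbols, and with the trend on exon length and GC content removed in each library as a grey diamond. Every interval includes 0, and the open symbols lie on opposite sides of 0 for Lrp2, Cubn, Amn and Clcn5.

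Set against the proximal tubule, the picture was the same except for Ocrl. Lrp2 was 10.3% and 16.0% of the summed CPM of the 20 proximal tubule markers in immune complex 1 and 2, against 11.5% and 12.8% in saline 1 and 2. Cubn was 1.85% and 3.06% in immune complex libraries against 2.04% and 2.13% in saline libraries, and Amn was 0.902% and 0.625% in immune complex libraries against 0.816% and 0.822% in saline libraries. Again the immune complex libraries lay on either side of the saline ones for these 3 genes. Ocrl was 0.133% and 0.157% in immune complex libraries against 0.150% and 0.145% in saline libraries, so its groups overlapped, unlike in CPM. Dab2 was 2.32% and 2.62% in immune complex libraries against 2.02% and 2.23% in saline libraries, a log2 difference of 0.22, and it was the only one of the 6 whose groups did not overlap on this measure (exact permutation test, two-sided p = 0.333, the smallest possible). For the other 5 the log2 difference lay between -0.13 for Amn and 0.19 for Cubn, and p was 1 in the same test.

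The authors' deposited table gives its fold changes as saline over immune complex, so a negative value there means higher in immune complex kidneys. In the authors' deposited table the log2 values were -0.03 for Lrp2, -0.12 for Cubn, 0.11 for Amn, -0.12 for Dab2, -0.06 for Clcn5 and 0.07 for Ocrl. The adjusted p in the authors' deposited table was 1.0 for all 6, and the unadjusted p ran from 0.461 for Dab2 to 0.876 for Lrp2.

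The immune complex libraries were also compared with each other, beside the GC content and exon length of the transcripts. The log2 ratio of immune complex 2 over immune complex 1 was 0.51 for Lrp2, 0.60 for Cubn and 0.46 for Clcn5, near 0 for Dab2 (0.05) and Ocrl (0.11), and -0.66 for Amn. Between saline 2 and saline 1 the same ratio stayed between -0.07 for Clcn5 and 0.18 for Lrp2. Amn has the shortest transcript and the highest GC content of the 6, 62.9% against 44.7% to 49.1% for the others. Its first 120 coding bases are shown beside those of Cubn, as GENCODE M21 gives them on GRCm38 (plus strand for Amn, minus for Cubn), at chr12:111271122-111271773 and chr2:13491304-13491813 with introns between, and capitals mark G and C.
Amn: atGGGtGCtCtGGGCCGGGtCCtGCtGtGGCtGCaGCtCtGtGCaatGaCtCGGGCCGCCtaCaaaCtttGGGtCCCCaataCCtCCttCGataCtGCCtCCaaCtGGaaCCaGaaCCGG
Cubn: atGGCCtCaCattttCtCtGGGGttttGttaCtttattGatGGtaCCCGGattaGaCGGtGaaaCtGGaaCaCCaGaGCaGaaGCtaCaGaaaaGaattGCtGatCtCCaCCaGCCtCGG
G and C make up 60.0% of these bases in Amn and 46.7% in Cubn, close to the 62.9% and 46.4% of their whole transcripts.

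Across 11845 genes, Spearman's rho of the immune complex 2 over immune complex 1 ratio was -0.61 with GC content and 0.35 with exon length, as a description over genes that share the same libraries and are not independent. In 6 bins of GC content the median log2 ratio ran from 0.41 in the lowest to -0.41 in the highest, while between the saline libraries it stayed between -0.02 and 0.02. In the group comparison the median log2 fold change was 0.13 in the lowest GC bin and -0.12 in the highest. Within their own bins, Lrp2 and Cubn were above 88.9% and 86.4% of genes, Clcn5 above 73.5%, Ocrl above 32.9%, Dab2 above 27.2% and Amn above 23.1%. Cubn, Dab2, Clcn5 and Ocrl share a GC bin and a length bin, and their ratios still ran from 0.05 to 0.60 around a GC bin median of 0.25. The part of GC content and length in these ratios was not tested. With the trend on exon length and GC content removed in each library, the log2 fold change was 0.03 ± 0.16 (SE) for Lrp2, 0.12 ± 0.14 for Cubn and 0.03 ± 0.10 for Amn, whose sign turned. It was 0.13 ± 0.15 (SE) for Dab2, 0.02 ± 0.10 for Clcn5 and -0.11 ± 0.13 for Ocrl. The trend was fitted to the deviation of each library from the mean of all libraries. Removing it thus also removes differences between groups that follow length or GC content. These standard errors leave out the uncertainty of the trend itself.

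**Figure D3:**
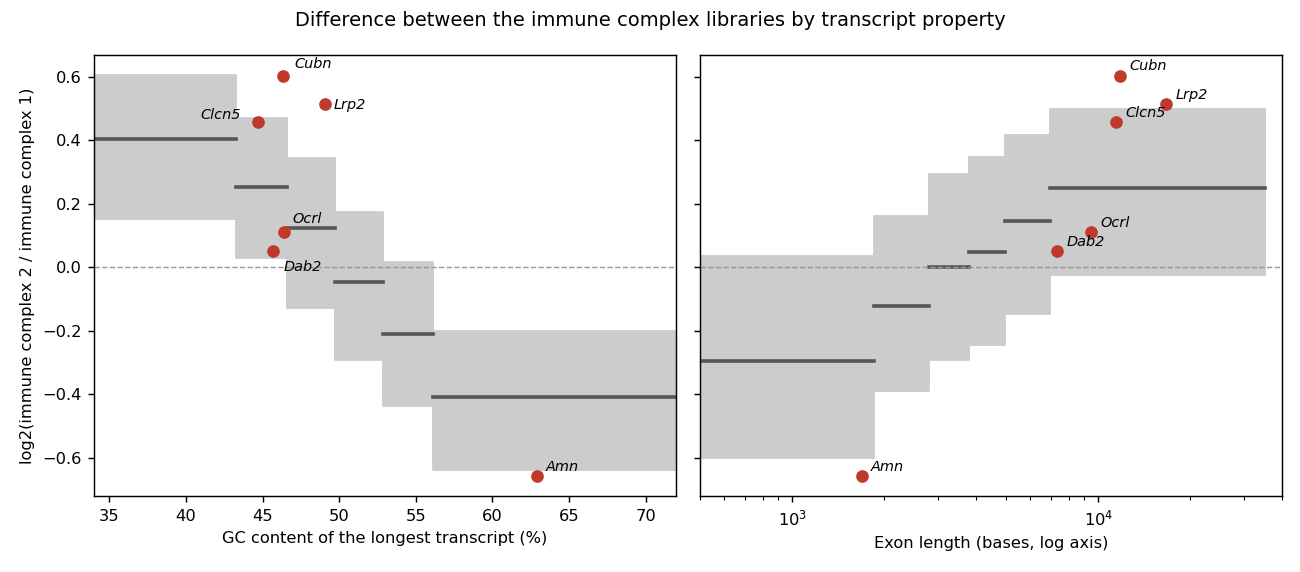
Log2 ratio of immune complex 2 over immune complex 1 (vertical axes) against GC content (left, %) and exon length (right, bases, log axis), with the 6 genes as red points and, for 6 bins of genes, the median as a line in a grey band from the lower to the upper quartile; the outermost bins run past the axis limits. Amn lies at the GC-rich, short end at -0.66, and Lrp2, Cubn and Clcn5 lie above the median of their bins.

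Among the genes whose pattern was most like that of Lrp2 were Wipi1 and Atg12, with root mean square differences of centred log2 CPM of 0.0060 and 0.020, out of 9294 candidates over 4 libraries. Cubn came at place 251 by this measure (0.072), Clcn5 at 554, Ocrl at 2829, Dab2 at 3123 and Amn at 8331. For Cubn the nearest were Chmp2b (0.0088), Slc35a5 (0.011) and Pura (0.011), and Lrp2 came at place 400.

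Of 91 tested genes in 6 lists around this pathway, 0 passed an adjusted p of 0.05 in edgeR's quasi-likelihood test, against a background of 0%, and 4 had an unadjusted p under 0.05, where 4.59% of all tested genes did. The median log2 fold change of the 6 receptor and endosome genes was 0.06, against 0.01 for all tested genes. Among 21 genes of the clathrin coat, its adaptors and cargo selection, 9 had a positive and 12 a negative log2 fold change (median -0.02). In CPM, 1 was higher and 3 lower without overlap, 19.0% of the list against 30.0% of all tested genes. Lrpap1, the chaperone of megalin and the most abundant of the list, had 445 and 480 CPM in immune complex libraries against 453 and 496 CPM in saline libraries (log2 fold change -0.04 ± 0.18 SE). The clathrin assembly gene Picalm differed by 0.32 ± 0.22 on the log2 scale and Gulp1, an engulfment adaptor, by 0.27 ± 0.25. Introns held 37.5% of Gulp1 reads, however. Its RPKM went the other way, at 0.947 and 0.983 in immune complex libraries against 0.989 and 1.017 in saline libraries. Gipc1, whose product binds the megalin tail, differed by -0.42 ± 0.23, and the fission GTPase gene Dnm2 by -0.22 ± 0.18. With single libraries left out, Picalm ranged from 0.05 to 0.56, Gipc1 from -0.71 to -0.17 and Dnm2 from -0.32 to -0.12.

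In the list of endosome sorting, recycling and phosphoinositides, 18 of 22 genes had a positive log2 fold change and 4 a negative one (median 0.14), and 3 did not overlap between groups, which is 13.6% of the list against 30.0% of all tested genes. Its median ratio of immune complex 2 over immune complex 1 was 0.31. The summed CPM of the list was 1690 and 1921 in immune complex 1 and 2, against 1826 and 1778 in saline 1 and 2. The immune complex libraries thus lay on either side of the saline ones. The small GTPase gene Rab5c differed by -0.11 ± 0.19 (log2, SE) and Ehd1, of endosome recycling, by -0.06 ± 0.17. Appl1, whose product binds OCRL, differed by 0.20 ± 0.22, and Inpp5b, the closest relative of Ocrl, by 0.28 ± 0.17. Inpp5b had 72.7 and 83.9 CPM in immune complex libraries against 64.7 and 64.7 CPM in saline libraries, without overlap, and its fold change ranged from 0.17 to 0.38 with single libraries left out.

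Genes of endosome acidification were balanced, with 8 of 15 positive and 7 negative in log2 fold change (median 0.05). Without overlap between groups 2 were higher and 3 lower, 33.3% of the list against 30.0% of all tested genes. Atp6v1e1, a subunit of the proton pump, differed by 0.08 ± 0.17 (log2, SE) and Atp6v0a1, another, by -0.24 ± 0.16. The relatives of Clcn5 named here, Clcn4 (listed as Clcn4-2) and Clcn6, both differed by 0.17, with standard errors of 0.17 and 0.19. Slc9a3r1, a scaffold of apical transporters, differed by -0.20 ± 0.19. With single libraries left out, Atp6v1e1 ranged from 0.015 to 0.15, Clcn4 from 0.04 to 0.29, Clcn6 from 0.00081 to 0.32 and Slc9a3r1 from -0.35 to -0.06.

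Of the 13 other members of the LDL receptor family, to which megalin belongs, 5 had a positive and 8 a negative log2 fold change (median -0.02). Groups did not overlap for 1 higher and 5 lower genes, 46.2% of the list against 30.0% of all tested genes. Sorl1, a sorting receptor, had 107 and 150 CPM in immune complex libraries against 260 and 161 CPM in saline libraries (-0.72 ± 0.29, log2, SE; adjusted p = 1.0, edgeR), with saline 1 standing apart and a value of -0.33 without it. Lrp3 differed by -0.68 ± 0.29, Lrp10 by -0.23 ± 0.20 and Lrp8 by 0.32 ± 0.38. Lrp1b differed by 0.43 ± 0.27, but 99.1% of its reads lay in introns. With single libraries left out, Sorl1 ranged from -1.03 to -0.33, Lrp3 from -1.13 to -0.34, Lrp10 from -0.42 to -0.07 and Lrp1b from 0.18 to 0.65.

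Among 17 tested genes for filtered ligands and vitamin carriers, 7 had a positive and 10 a negative log2 fold change (median -0.02). These are transcripts made in the kidney library and not the protein filtered from blood. Of these genes 2 were higher and 4 lower without overlap between groups, 35.3% against 30.0% of all tested genes. Gpx3, the plasma glutathione peroxidase made by the tubule, was the most abundant and differed by 0.20 ± 0.20 (log2, SE). Gc, the vitamin D binding protein, had 144 and 121 CPM in immune complex libraries against 95.8 and 100.1 CPM in saline libraries (0.43 ± 0.18). Rbp4, the retinol carrier that is also made by adipocytes, had 451 and 356 reads in immune complex libraries against 3 and 188 reads in saline libraries, so 1 saline library was nearly without it (2.03 ± 1.09; 6.90 without saline 2). Lcn2, which binds bacterial siderophores, differed by -0.88 ± 0.29, at a low level of 55 and 62 reads in immune complex libraries against 105 and 101 reads in saline libraries. The albumin gene Alb differed by -0.58 ± 0.28 (-0.86 to -0.35 with single libraries left out). Adipocyte markers were higher in the same libraries, and their part in the Rbp4 values was not tested.

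Cyp27b1, which makes the active form of vitamin D from the precursor that megalin takes up, had 20.5 and 28.4 CPM in immune complex 1 and 2, against 9.89 and 8.89 CPM in saline 1 and 2, with both immune complex libraries above both saline ones. The log2 fold change was 1.38 ± 0.23 (SE; adjusted p = 0.457 by edgeR's quasi-likelihood test with Benjamini-Hochberg adjustment, unadjusted p = 0.000746), while DESeq2 gave 1.37 ± 0.30 with an adjusted p of 0.00205. Leaving out any 1 library kept it between 1.13 and 1.597. Cyp24a1, which breaks active vitamin D down, differed by 0.11 ± 0.29 and the receptor gene Vdr by -0.25 ± 0.18 (-0.38 to -0.13 with single libraries left out). Of the 3 tested genes of this list, 1 was higher and 1 lower without overlap, 66.7% against 30.0% of all tested genes.

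**Figure D4:**
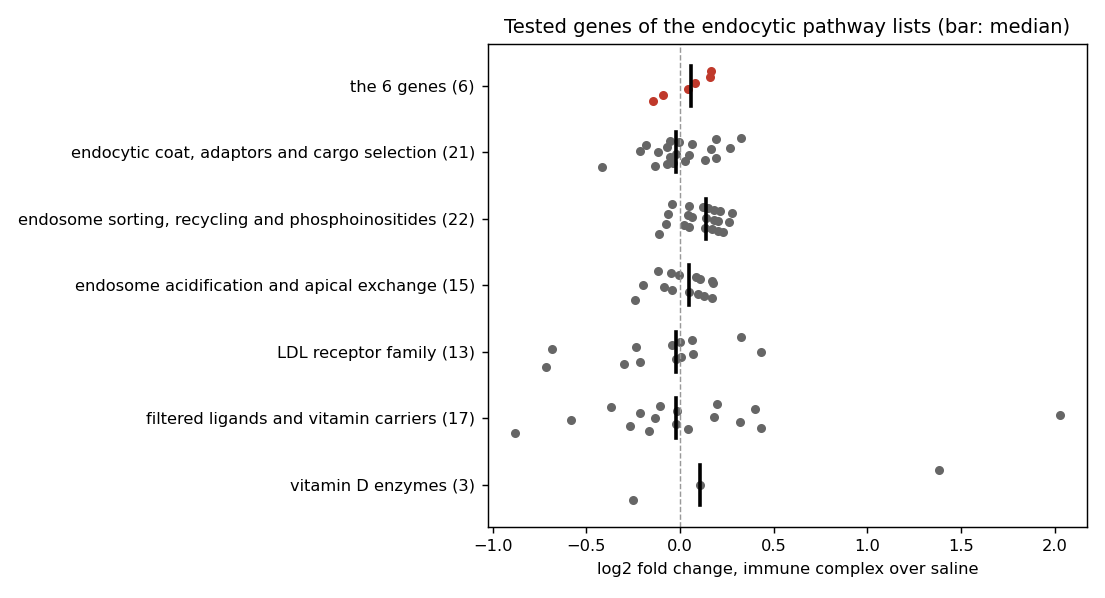
Log2 fold change of immune complex over saline (horizontal axis) for each tested gene of the 6 lists, with the 6 receptor and endosome genes in red, the number of genes in brackets and the median as a bar. Medians lie between -0.02 and 0.14, and the farthest points to the right are Rbp4 at 2.03 and Cyp27b1 at 1.38.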

How the data were processed

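Kidney RNA from 2 immune complex and 2 saline samples was sequenced on Illumina libraries (per the labels). STAR 2.5.2b, DESeq2 and GRCm38 appear in the submitters' processing notes without roles. Counter, annotation release, strand setting: not given in the sources used here. Per the file headers, each sample table holds raw counts of total, unique, exon, intron and junction reads, gene and exon lengths in bases, and RPKM computed by the authors. The authors' deposited table holds per gene a p-value, raw and adjusted, a log2 fold change with its error, a mean signal of scaled counts and a test score, per the file headers. It lists 16128 genes, and in each of the 80 that pass its adjusted threshold the fold change is opposite in sign to the read ratio of immune complex over saline.

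Total gene reads were tested with edgeR 4.0.16 in R 4.3.3 (filterByExpr, TMM, quasi-likelihood test, Benjamini-Hochberg adjustment at 0.05 over 16334 genes). Biological variation had a common coefficient of 0.212, and 95% intervals use 2 residual plus 4.61 prior degrees of freedom. DESeq2 1.42.0 and limma 3.58.1 were alternatives, with exon or unique reads, DESeq2's size factors, no low-count filter, single libraries left out and a replicate block. The edgeR fit was tested on simulated data. RPKM served for levels only. Precision is limited by 2 libraries a group; read shares cover counting error only. Transcript GC came from GENCODE M21 (99.0% of tested genes), promoters from RefSeq. Under another name in the files were 3 genes, Dab2 among them, matched by gene ID. Genes were named by a rule: all 6 members, and from each list the most abundant gene and up to 2 per direction with the lowest p and a mean of at least 1 CPM, besides the 3 genes most like each of Lrp2 and Cubn, of which 1 is not reported here. The members and lists were chosen with earlier results of these data known. Replicate numbers are shared between groups but no label says that they pair libraries.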

Additional observations from a re-analysis of the deposited data

How the results depend on the processing

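The count of genes called, 0 in edgeR's quasi-likelihood test, was 2 without a filter on low counts, 1 with unique reads, 96 with DESeq2 and 0 to 279 with single libraries left out (47 without saline 1 and 279 without saline 2). With the replicate number as a block it was 55. Deviations of same-numbered libraries correlated at -0.13, so crossed numbers, chosen after seeing the data, were tried and gave 160, and removing the exon length trend, or the length and GC trends, also chosen after seeing the data, gave 0. The block changed no call for the 6 genes: Lrp2 was 0.02, Cubn 0.13, Amn -0.18, Dab2 0.16, Clcn5 0.06 and Ocrl -0.09 (log2). Of 84 alternatives for the 6 genes, 78 kept direction and side of the threshold, 6 reversed and 0 crossed it, and the lowest adjusted p was 0.192, for Amn without immune complex 1. Removing the length and GC trends turned Amn to 0.034, Ehd1 to 0.075 and Lrpap1 to 0.010. With single libraries left out, Lrp2 ranged from -0.24 to 0.28, Cubn from -0.17 to 0.44, Amn from -0.51 to 0.15 and Clcn5 from -0.17 to 0.29. As log2 ratios to proximal tubule markers, Lrp2 ranged from -0.24 to 0.40, Cubn from -0.17 to 0.56, Amn from -0.39 to 0.14, Clcn5 from -0.18 to 0.41 and Ocrl from -0.15 to 0.087. Among list genes, Appl1 ranged from -0.050 to 0.42, Cyp24a1 from -0.31 to 0.43, Ehd1 from -0.15 to 0.020, Gpx3 from -0.028 to 0.39, Lrp8 from -0.32 to 0.77, Lrpap1 from -0.10 to 0.020 and Rab5c from -0.29 to 0.051. Cyp27b1 passed the threshold with DESeq2 (1.37) and crossed numbers (1.36), and Rbp4 without saline 2 (6.90). The causes were not tested. Where a library is left out, the lone library of its group is assumed to vary like the other group.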
